A study of Drosophila melanogaster with 2 samples.

Results

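The 9 genes described here encode enzymes and transporters of carbohydrate stores in the fly: the amylases Amy-p, Amy-d and Amyrel, the trehalose genes Tps1, Treh, Tret1-1 and Tret1-2, and the glycogen genes GlyP and AGBE. They were chosen by symbol from the 17559 genes of the deposited table, by function, with earlier results of these data known. All 9 symbols were found, 7 had reads and 2 were listed at 0 in both libraries. The question was whether heterozygous loss of Taf1, the largest subunit of the general transcription factor TFIID, went with another level of these genes in a fly model of reduced TAF1. RNA was taken from 1 pool of 10 whole heterozygous flies (labelled Taf1_1 heterozygous mutant, from a cross of a taf1 stock to w1118) and from 1 pool of 10 whole control flies (labelled w1118_control). The taf1 chromosome of the parental stock also carried alleles of red and e over the balancer TM3, and the mutant flies had 1 parent from that stock, so taf1 and the rest of the genetic background cannot be told apart. The sources used here give neither the sex nor the age of the flies, and whole flies mix all tissues, so that more cells of a type and more RNA per cell cannot be told apart.

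Flies digest starch in the midgut with alpha-amylases, which cut it to maltose and short chains for the maltases to cleave to glucose. The fat body joins UDP-glucose and glucose 6-phosphate into trehalose, the main blood sugar of insects, and releases it into the hemolymph, where flight muscle, gut and brain take it up and split it again with trehalase. Surplus glucose is stored as glycogen, which is extended by glycogen synthase, branched by the branching enzyme and broken down by glycogen phosphorylase and the debranching enzyme.

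The mutant library held 32364756 reads and the control library 16753242. TMM scaling, a trimmed mean of gene-wise ratios, gave a size ratio of 1.61 for mutant over control, and levels are CPM, the reads of a gene relative to all reads after this scaling. To be called higher or lower, a gene needed a ratio of 1.5-fold or more (0.58 on the log2 scale) with a 95% interval that left out equality, and a sum of 20 or more reads, which 11606 genes reached. Intervals reflect only the error of counting. Each genotype has a single library, so there is no replicate check and no p-value, and each ratio compares these libraries. Marker genes of several tissues were present in both libraries, and mitochondrially encoded genes took 15.2% of the mutant reads and 2.91% of the control reads.

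Of the 7 genes with reads, 4 were higher in the taf1-mutant library, namely Amyrel, Tps1, AGBE and Amy-p, and 0 were lower. Amy-d, GlyP and Treh were not called. Amy-p and Amy-d are close copies, and the sum of their reads was not called either. Among all measured genes, 12.8% were called higher and 6.14% lower. The median log2 ratio (mutant over control) came to 0.71 over the 7 genes and to 0.0064 over all measured genes. Together the 9 genes took 98843 reads in the mutant library and 37773 in the control library, or 0.305% and 0.225% of each library.

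**Figure D1:**
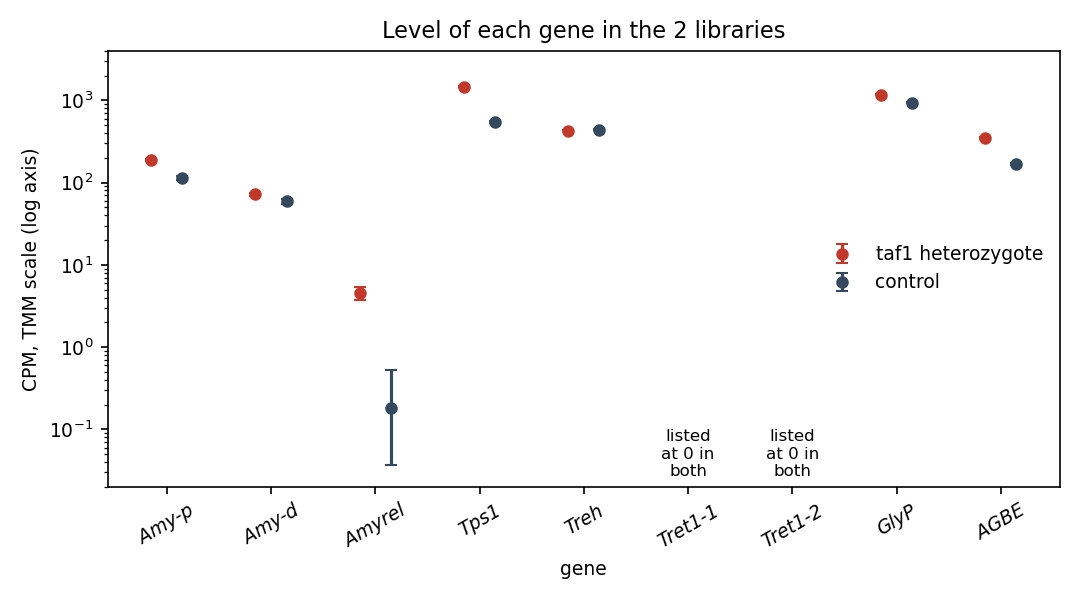
Level of each of the 9 genes in CPM on the TMM scale (log axis), with the mutant library left of the control library; bars are exact 95% Poisson intervals of counting error. The highest level is that of Tps1 in the mutant library (1456 CPM), the lowest above 0 that of Amyrel in the control library (0.179 CPM), and both Tret1 genes are listed at 0.

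The amylase genes differed from each other. Amy-p (FBgn0000079), the proximal copy of the classical amylase pair, had 5007 reads in the mutant library and 1899 in the control library. This was 186 CPM (95% Poisson interval 181 to 191) in the mutant library and 113 CPM (108 to 119) in the control library, a 1.64-fold higher level (95% exact conditional binomial interval 1.55 to 1.73). The intervals of both levels did not overlap.

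Amy-d (FBgn0000078), the distal copy, had 1936 reads in the mutant library and 987 in the control library. Its level was 71.8 CPM (68.7 to 75.1) in the mutant library and 58.9 CPM (55.3 to 62.7) in the control library. The ratio of 1.22 (1.13 to 1.32) lay below the 1.5-fold limit. Amy-p thus made up 72.1% of the reads of the pair in the mutant library (95% exact interval 71.0 to 73.2) and 65.8% in the control library (64.0 to 67.5). This share does not depend on how the libraries are scaled, but it may depend on how reads that fit both copies were counted. The ratio of Amy-p to Amy-d reads was 1.34 times higher in the mutant library (95% interval 1.22 to 1.48, normal approximation on the log scale). With the reads of both copies summed, the pair had 258 CPM in the mutant library and 172 CPM in the control library, a log2 ratio of 0.5803 (0.52 to 0.64), just below the limit of 0.585.

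Amyrel (FBgn0020506), a diverged amylase-related gene, had few reads, 121 in the mutant library and 3 in the control library. Its level was 4.49 CPM (3.72 to 5.36) in the mutant library and 0.179 CPM (0.0369 to 0.523) in the control library. The ratio was 25.1 (8.38 to 123), and its wide interval comes from the 3 control reads. By ratio Amyrel ranked 34 of the 11606 measured genes. It added little to the amylase reads: in the mutant library there were 0.0242 Amyrel reads for each Amy-p read, and in the control library 0.00158.

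All amylase genes lie on chromosome arm 2R of BDGP6. Amy-p (17118636 to 17120303, minus strand) and Amy-d (17124764 to 17126369, plus strand) are annotated with 1 exon in each of their transcripts and point away from each other across 4460 nt. Amyrel (16651095 to 16652699, minus strand, 2 exons) lies 465936 nt to the left of Amy-p. Amy-p and Amy-d are close copies, and the sources used here do not say how reads that fit both were counted, so the split between them is uncertain. The identity of their sequences was not computed. The measured genes next to the pair, CG15611 and CG15605, had log2 ratios of 0.19 and -0.06 and were not called.

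The Amy-p call depended on the scaling. Its log2 ratio was 0.71 with TMM, but 0.45 when scaled by total reads and 0.39 when the qPCR reference genes of the study were set to equality, both below the limit. Amy-d had 0.29, 0.02 and -0.04 on these scalings. With TMM computed without the mitochondrially encoded genes, Amy-p was at 0.71 and no call of the genes with reads changed. Amyrel was at 3.86 or above on every scaling that was run. Among 26 serine protease genes of the midgut, where amylase is also made, 24 were measured, 6 were higher and 2 lower. Their median log2 ratio was 0.13 and their summed level 4693 CPM in the mutant library and 3995 CPM in the control library, with gammaTry at 0 in both. With the median of this list at equality, Amy-p stood at 0.5869 against the limit of 0.585, and was still called higher.

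**Figure D2:**
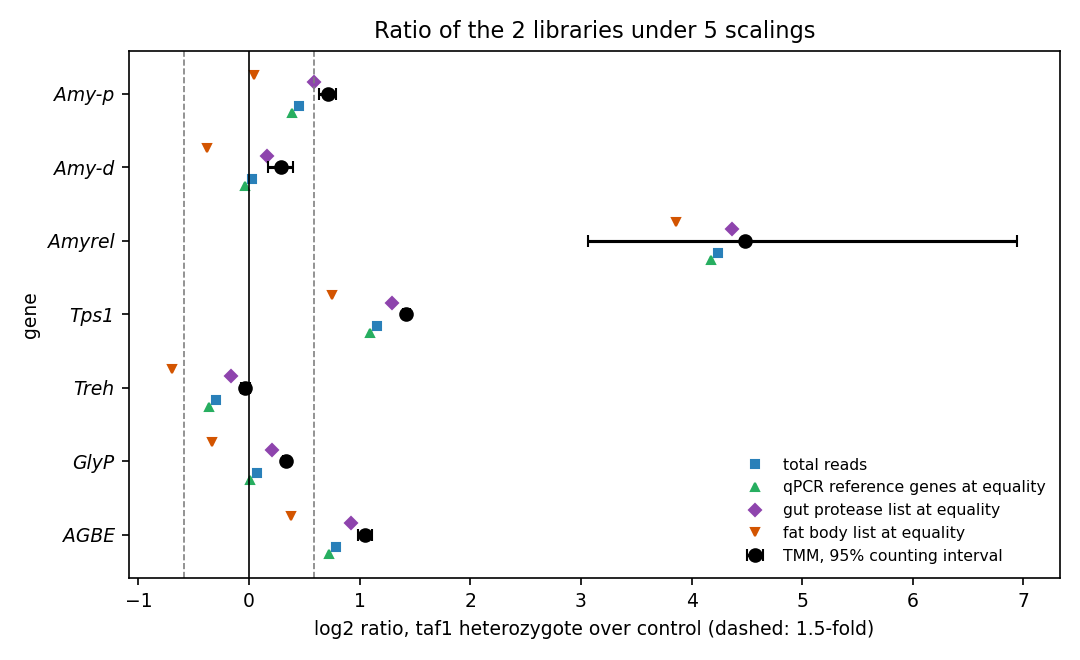
Log2 ratio of the mutant over the control library for the 7 genes with reads. Black points are the TMM scaling with 95% counting intervals, coloured points other scalings, and dashed lines the 1.5-fold limit; Amyrel and Tps1 lie right of the limit on all 5 scalings, while Amy-d and GlyP lie above or below 0 depending on the scaling.

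Tps1 was higher in the mutant library, while Treh was level. Tps1 (FBgn0027560), the enzyme that makes trehalose, had 39251 reads in the mutant library and 9117 in the control library. The level was 1456 CPM (1442 to 1471) in the mutant library and 544 CPM (533 to 555) in the control library, which is 2.68-fold higher (2.62 to 2.74). Tps1 ranked 337 by ratio, so 2.9% of the measured genes had a ratio as high. By reads it ranked 69 in the mutant library and 292 in the control library.

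Treh (FBgn0003748), the trehalase that splits trehalose into glucose, had 11558 reads in the mutant library and 7359 in the control library. Its level was 429 CPM (421 to 437) in the mutant library and 439 CPM (429 to 449) in the control library, and the interval of the ratio, 0.976 (0.948 to 1.01), held equality. Within a library, 3.40 Tps1 reads were counted for each Treh read in the mutant library and 1.24 in the control library. This ratio was 2.74 times higher in the mutant library (2.64 to 2.84) whatever the scaling.

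The genes of neighbouring steps had both higher and level ratios. CG5171, annotated by similarity as a trehalose phosphatase, was higher at 92.7 CPM in the mutant library and 48.8 CPM in the control library (log2 ratio 0.93, 0.81 to 1.04). Its homolog CG5177, with more reads, had 198 CPM in the mutant library and 188 CPM in the control library (0.08, 0.01 to 0.14), and the trehalase homolog CG6262 had 493 CPM and 534 CPM (-0.12, -0.15 to -0.08). Of the 10 genes of the list on trehalose and sugar transport, 9 were measured, 3 were higher and 0 lower, with a median of 0.17. The other genes called were the sugar transporter genes sut1 at 0.69 and sut2 at 0.83. When scaled by total reads, sut1 was at 0.42 and sut2 at 0.56, so that 1 gene of the list, CG5171, was still higher, and Glut1 was called lower. The glucose transporter gene Glut1 had a log2 ratio of -0.47, within the limit.

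Tps1 lies on chromosome arm 2L (4388327 to 4392778, plus strand, 5 exons) and shares 9 nt with CG3652 of the opposite strand. Treh lies on 2R (21074018 to 21088945, plus strand, 7 annotated transcripts of 6 to 7 exons) and shares its last 560 nt with Rbpn-5 of the opposite strand. Rbpn-5 had 821 reads in the mutant library and 649 in the control library, few beside those of Treh. How reads within the shared 560 nt were counted is not given in the sources used here. Their part in the level of Treh was not tested.

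The facilitated trehalose transporters Tret1-1 (FBgn0050035; 2R, 11665768 to 11674782) and Tret1-2 (FBgn0033644; 2R, 11675935 to 11678014) were listed at 0 in both libraries. They are neighbours, 1152 nt apart on the plus strand, and both lie whole within the span of Roc2 (11652756 to 11679354), a gene of the minus strand that had 299 reads in the mutant library and 103 in the control library. Of the 1892 protein-coding genes of the table that lie whole within another gene, 1875 were listed at 0 in both libraries, or 99.1% (95% Wilson interval 98.6 to 99.4). This held also where all enclosing genes were on the opposite strand, as for the Tret1 genes, with 1057 of 1065 at 0. Of the other 11960 protein-coding genes, 415 were at 0, or 3.47% (3.16 to 3.81). The 0 of Tret1-1 and Tret1-2 is therefore shared by nearly all genes in that position and gives no measure of their level in either library. The same position was found for all 9 genes of the pathway lists that were at 0: the glycogen primer gene Gyg (named Glycogenin in the table), the sugar transporter gene sut4, the hexokinase gene Hex-C, the maltase genes Mal-B1 and Mal-B2, and the insulin-like peptide genes Ilp2, Ilp3, Ilp5 and Ilp6. The spans come from the Ensembl release 115 annotation of BDGP6, and the authors' release is not stated in those sources.

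**Figure D3:**
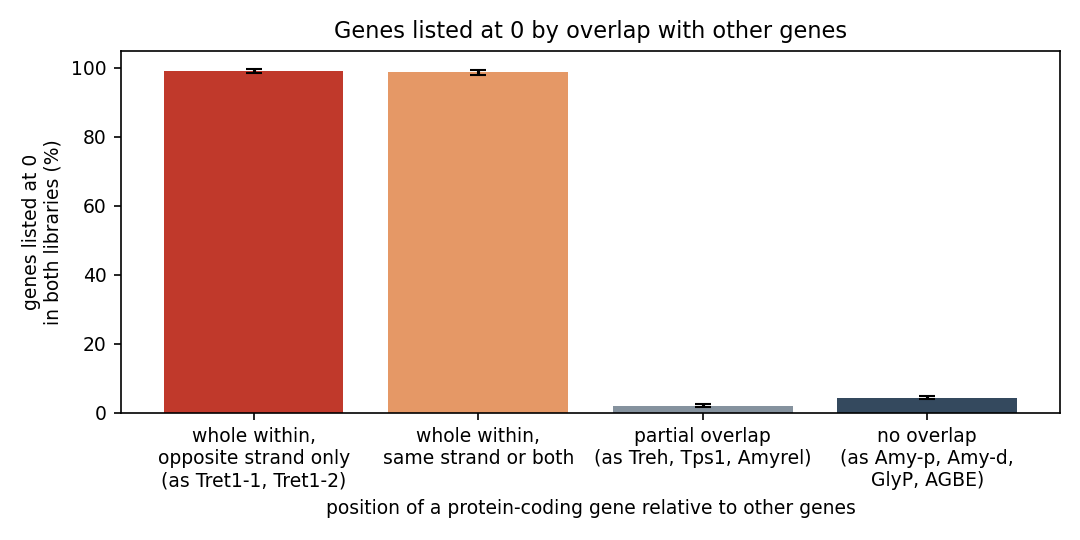
Share of protein-coding genes listed at 0 in both libraries (y axis, in %), by their position relative to other genes of the table; bars start at 0 and error bars are 95% Wilson intervals. Genes that lie whole within another gene are at 0 in about 99.1% of cases, Tret1-1 and Tret1-2 among them, against 2.05% with partial overlap and 4.34% without overlap.

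In glycogen turnover the branching enzyme stood apart from the phosphorylase. AGBE (FBgn0053138), the glycogen branching enzyme, had 9377 reads in the mutant library and 2818 in the control library. The level was 348 CPM (341 to 355) in the mutant library and 168 CPM (162 to 175) in the control library, or 2.07-fold higher (1.98 to 2.16). AGBE ranked 632 by ratio.

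GlyP (FBgn0004507, now written Glyp), the glycogen phosphorylase, was the most abundant of the 9 genes in the control library by reads, with 31593 reads in the mutant library and 15590 in the control library. Its level was 1172 CPM (1159 to 1185) in the mutant library and 931 CPM (916 to 945) in the control library. The ratio of 1.26 (1.24 to 1.28) lay above equality and below the 1.5-fold limit. Per GlyP read there were 0.297 AGBE reads in the mutant library and 0.181 in the control library, a ratio 1.64 times higher in the mutant library (1.57 to 1.72) whatever the scaling.

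Of the 8 other genes of glycogen metabolism, 7 were measured, 3 were higher and 0 lower, with a median log2 ratio of 0.43. UGP, which makes the UDP-glucose used for both glycogen and trehalose, was higher at 652 CPM in the mutant library and 319 CPM in the control library (log2 ratio 1.03, 0.99 to 1.08). The phosphoglucomutase gene Pgm1, which supplies the glucose 1-phosphate for UGP, was at 0.77 (0.72 to 0.81). CG9485, the homolog of the human debranching enzyme, was at 0.84 (0.76 to 0.92). Glycogen synthase, GlyS, had 355 CPM in the mutant library and 263 CPM in the control library (0.43, 0.38 to 0.49) and was not called. Its ratio was close to that of GlyP, with 0.303 GlyS reads per GlyP read in the mutant library and 0.282 in the control library, a change of 1.07 times (1.03 to 1.12). The phosphorylase kinase subunit gene PhKgamma had a log2 ratio of -0.27 (-0.32 to -0.22), within the limit. When scaled by total reads, Pgm1 was at 0.50 and CG9485 at 0.579, and UGP was the 1 gene of the list still higher, as it was by the reference genes of the qPCR. Tps1, UGP and AGBE were thus each raised more than GlyS, by 1.98 times (1.90 to 2.07), 1.51 times (1.44 to 1.59) and 1.53 times (1.45 to 1.62) when counted per GlyS read.

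AGBE lies on 2R (13171401 to 13174796, plus strand, 4 exons) and GlyP on 2L (2130813 to 2137296, plus strand, 4 exons), and neither overlaps another gene of the table. The median log2 ratio of all measured genes was 0.01 on 2R and 0.01 on 2L. The 12 measured genes next to the 7 genes with reads ranged from -0.16 to 1.13 with a median of 0.18, and 3 of them were higher, Picot beside Amyrel, Psf2 beside Tps1 and CG4259 beside GlyP.

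Per kilobase of transcript, the order of the genes differed between the libraries. In the mutant library Tps1 was first with 499 CPM per kb, followed by GlyP with 388, AGBE with 149.8, Treh with 146, Amy-p with 114, Amy-d with 44.7 and Amyrel with 2.90. In the control library GlyP was first with 308 CPM per kb, followed by Tps1 with 186, Treh with 150.02, AGBE with 72.4, Amy-p with 69.5, Amy-d with 36.7 and Amyrel with 0.116. Tps1 and GlyP thus changed places at the top. AGBE and Treh did not differ beyond counting error in the mutant library (146.8 to 152.9 for AGBE and 143.8 to 149.1 for Treh), nor did AGBE and Amy-p in the control library (69.8 to 75.2 and 66.4 to 72.7).

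The Tps1 call held on every scaling that was run, with its lowest log2 ratio at 0.75. AGBE was called higher on all but 1, at 0.78 when scaled by total reads and at 0.72 by the reference genes of the qPCR. The exception set the fat body list to equality, a choice made after the data were seen. There AGBE was at 0.38, Amy-p at 0.05 and GlyP at -0.33, and Treh was called lower at -0.70. With that list at equality, 55.5% of all measured genes were called lower and 3.18% higher. Of the 11 genes of that list, made of fat body storage, lipid transport and lipid droplet genes, all were measured, 6 were higher and 0 lower, with a median of 0.67. Their summed level was 3407 CPM in the mutant library and 2232 CPM in the control library, and none was at 0. Most of this sum came from 2 genes. These were apolpp, with 1390 CPM in the mutant library and 833 CPM in the control library, and FASN1, with 1574 CPM and 1050 CPM, which was not called. Among the higher genes of this list, Lsp2, Lsp1alpha and Fbp2 had few reads. They had 274, 76 and 149 in the mutant library and 27, 19 and 20 in the control library. Muscle genes, 7 of 8 measured and not all particular to flight muscle, had 2 higher and 0 lower and a median of 0.55. Their summed level was 21775 CPM in the mutant library and 16470 CPM in the control library, with TpnC4 at 0. Hemocyte markers, 7 of 8 measured, had 4 higher and 0 lower, a median of 0.63 and a summed level of 317 CPM in the mutant library and 248 CPM in the control library. Neuron markers, 7 of 9 measured, had 0 higher and 3 lower with a median of -0.52. Their summed level was 1370 CPM in the mutant library and 1879 CPM in the control library, with elav and Syx1A at 0. TpnC4 and Syx1A lie whole within other genes, as the Tret1 genes do, so their 0 gives no measure of their level. The gene elav does not lie whole within another gene, and why it was listed at 0 was not tested. Testis markers, 14 of 16 measured, had 5 higher and 0 lower with a median of 0.06. The summed level of the testis list was 4055 CPM in the mutant library and 3568 CPM in the control library. Of the 3 yolk protein genes 0 were higher and 1 lower. The summed level of the yolk list was 14.1 CPM in the mutant library and 15.9 CPM in the control library. In both libraries the testis list was thus far above the yolk list. Whether both pools were of 1 sex was not tested. The part of these tissue levels in the ratios was not tested. The log2 ratio also fell with transcript length over all genes, with a median of 0.19 among the 1158 genes with the shortest transcripts and -0.28 among the 1155 with the longest. Each gene was also set against the median of its own length class, of 10 equal classes. Tps1 was then at 1.48, AGBE at 1.06, Amy-p at 0.64, GlyP at 0.40, Amy-d at 0.22 and Treh at 0.03. No call of the 7 genes with reads changed. On the same measure the neuron markers had 0 higher and 1 lower, in place of 3 lower, with a median of -0.41.

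**Figure D4:**
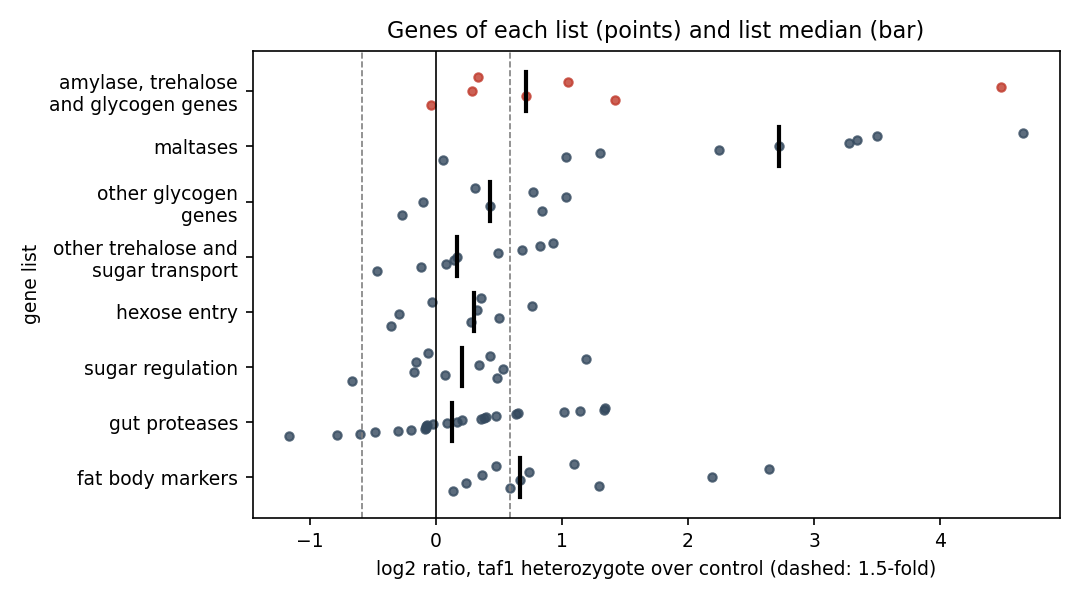
Log2 ratios of mutant over control (TMM) for measured genes of 8 lists, with 1 point per gene, a bar at each list median and dashed lines at the 1.5-fold limit. The maltases have the highest median (2.72), and the amylase, trehalose and glycogen genes have a median of 0.71, against 0.67 for the fat body markers and 0.13 for the gut proteases.

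Around these genes, the pathway lists held 52 genes, of which 43 were measured, 16 were higher and 1 was lower, with a median log2 ratio of 0.43. When scaled by total reads 11 were higher and 3 lower, and by the reference genes of the qPCR 11 were higher and 5 lower. Over all measured genes, 12.8% were higher and 6.14% lower with TMM. These shares were 6.97% and 19.1% with total reads, and 6.21% and 23.6% by the reference genes of the qPCR. Of the 16 higher genes 8 were from the list of maltases and the alpha-glucosidase gene tobi, which had 9 measured members and a median of 2.72. Maltases act on the products of the amylases, but the substrates of the single genes of this list were not tested here. Mal-A1 alone had 378 CPM in the mutant library and 37.2 CPM in the control library (log2 ratio 3.34). Mal-A7 was at 4.66, Mal-A8 at 3.50 and Mal-A6 at 3.28, while Mal-A5 had 0.05. The summed level of this list was 1267 CPM in the mutant library and 241 CPM in the control library, a 5.27-fold difference, against 262 CPM and 172 CPM for the 3 amylase genes (1.52-fold). Among 8 measured genes of hexose entry, fructose-bisphosphatase, fbp, was higher (0.76, but 0.49 when scaled by total reads) and 0 were lower. Among 10 measured genes of sugar sensing and hormone signalling, AkhR was higher at 1.19 (1.03 to 1.35) and chico was lower at -0.67 (-1.08 to -0.26), but at -0.53, within the limit, against its length class. AkhR is the receptor for the adipokinetic hormone, which mobilises glycogen and fat from the fat body, and chico is the insulin receptor substrate. The hormone gene Akh itself had 219 reads in the mutant library and 101 in the control library (0.43, 0.08 to 0.79), and the sugar-regulated transcription factor gene sug, known for repressing amylase, had a ratio of 0.53 (0.38 to 0.69). Neither reached the limit.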

How the data were processed

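RNA libraries of 1 pool per genotype were made with a stranded mRNA kit from 2 µg of total RNA and sequenced on an Illumina HiSeq by a genomics core. The authors deposited 1 table with a signal value per gene and library on BDGP6, namely read counts that they had divided by a library factor (1.26 for the mutant, 0.761 for control). The choice of aligner, counter and annotation release is not given in the sources used here. Divided by the smallest positive value of its column, each value came out whole (100% of values within 0.001 of a read), which recovers the reads. The planned calculations, meant for counts, were run on these reads. A count model could not be fitted with 1 library a genotype, since 0 residual degrees of freedom remain.

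TMM was computed with edgeR 4.0.16 and the median of ratios with DESeq2 1.42.0 in R 4.3.3, and all else in Python 3.11.15 with scipy 1.17.1. The code for calls and intervals was run on simulated Poisson counts. These hold no variation between pools, so that run checks the code and not the calls. Log2 ratios used a prior count of 0.5 scaled to library size. Intervals are exact conditional binomial for ratios of 1 gene and exact Poisson for CPM. Symbols were matched to the annotation for 17403 genes, directly or through RefSeq synonyms, and length is the median over transcripts. The genes and lists were chosen with earlier results of these data known. Named genes are the 9 genes, up to 4 called genes per pathway list, the list genes at 0, and at most 3 genes per marker list. GlyS, PhKgamma, CG5177, CG6262, Glut1, Mal-A5, Akh, sug, apolpp, FASN1 and the flanking or overlapping genes are named outside that rule. Other scalings, prior counts, fold limits, read minimums and a length adjustment were tried.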

Additional observations from a re-analysis of the deposited data

How the results depend on the processing

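Of the 7 genes with reads, 0 went from higher to lower or the reverse under the alternatives, but some calls were lost. Amy-p was not called with total reads, by the reference genes of the qPCR or with the fat body list at equality. AGBE was not called with the fat body list at equality. The count of higher genes among the 7 was 4 with TMM and 2 with the fat body list at equality, where 1 was lower. It was 3 with total reads, by the reference genes of the qPCR and at a 2-fold limit, and 6 without a fold limit. For the pathway lists, 16 genes were higher and 1 lower with TMM. The higher count was 11 both with total reads and by the reference genes of the qPCR, where Pgm1, CG9485, sut1, sut2 and fbp were not called. It was 7 with the fat body list at equality, 10 at a 2-fold limit and 30 without a fold limit. The lower count was 3 with total reads, 5 with the qPCR reference genes, 2 with the gut protease list, 14 with the fat body list, 0 against genes of the same length class, 0 at 2-fold and 9 without a limit. Over all genes, the share higher was 6.97% with total reads, 6.21% with the qPCR reference genes, 3.18% with the fat body list, 5.73% at 2-fold and 31.9% without a limit, and the share lower was 19.1%, 23.6%, 55.5%, 1.69% and 30.4% in the same order, and 10.8% with the gut protease list. The size ratio of total reads shifts log2 ratios by -0.26, and that of Amyrel, with few reads, was at 4.24 in place of 4.48. The 2 tissue list scalings were chosen after the data were seen. No paired analysis was possible because each genotype has 1 library, and for the same reason no library could be left out. Amyrel is limited by its 3 control reads.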
